A study of Mus musculus with 12 samples.

Results

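The genes described here are the CDK inhibitors and the D cyclins, a named set of 10 genes. They were chosen by family, with their log2 levels and differences across these same 4 populations already known, so those values are described here without a test. The set holds the Cip/Kip inhibitors Cdkn1a, Cdkn1b and Cdkn1c, the INK4 inhibitors Cdkn2a, Cdkn2b, Cdkn2c and Cdkn2d, and the cyclins Ccnd1, Ccnd2 and Ccnd3. Of the 10 genes, 9 were measured among 17853 genes in all, and the expression of Cdkn2d was not analysed here. Expression was read on 12 mouse exon arrays, 3 for each of 4 populations of back skin epidermal cells taken in telogen, when hair follicles rest. All mice were female, of the C57BL6/CBA background, and carried the Gata6-mTomato reporter, so the control populations carried it too. Per the labels the mice were matched for age, but the age itself was not given.

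Flow cytometry separated the cells by red reporter fluorescence and by the surface proteins Itga6 and CD34. Itga6 is the integrin chain by which basal keratinocytes hold the basement membrane. In mouse skin CD34 is a surface marker of follicle bulge stem cells. Gata6+Itga6+ and Gata6+Itga6- cells carried the reporter signal with and without surface Itga6. CD34+ cells were Itga6-positive and lacked the reporter signal. Remaining basal cells were Itga6-positive and lacked both the reporter signal and CD34. The reporter stands in for Gata6 protein, and the sources used here do not say how it was built. The labels call the 3 arrays of a population biological replicates but do not say how many mice gave each, so the errors measure the spread between these arrays.

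D cyclins bind Cdk4 and Cdk6, and the resulting kinases phosphorylate the retinoblastoma protein and its relatives, which frees E2F factors to switch on genes for DNA replication. INK4 proteins bind Cdk4 and Cdk6 directly, whereas Cip/Kip proteins act on cyclin-bound kinases, above all those with Cdk2. In skin, p21, the product of Cdkn1a, is a classical target of p53 and is also induced as keratinocytes withdraw from the cell cycle to differentiate. Bulge stem cells of resting follicles divide rarely.

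Upstream sequences of Cdkn1a and Cdkn1b are shown because Cdkn1a had the largest differences of the set and Cdkn1b, of the same Cip/Kip family, had much smaller ones. They are the 250 bases before annotated starts in RefSeq, on build GRCm38.p6, and all 3 lie on the plus strand. Cdkn1a start site 1 follows chr17:29090729-29090978, Cdkn1a start site 2 follows chr17:29093519-29093768, and the Cdkn1b start follows chr6:134920151-134920400. Capitals mark matches to a p53 half-site in the first sequence and to the GC box GGGCGG in the others.
Cdkn1a start site 1: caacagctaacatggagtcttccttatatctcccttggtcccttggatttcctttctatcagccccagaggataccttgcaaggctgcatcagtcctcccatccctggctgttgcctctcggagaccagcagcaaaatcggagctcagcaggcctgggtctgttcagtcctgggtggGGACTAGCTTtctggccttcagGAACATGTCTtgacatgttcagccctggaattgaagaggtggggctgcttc
Cdkn1a start site 2: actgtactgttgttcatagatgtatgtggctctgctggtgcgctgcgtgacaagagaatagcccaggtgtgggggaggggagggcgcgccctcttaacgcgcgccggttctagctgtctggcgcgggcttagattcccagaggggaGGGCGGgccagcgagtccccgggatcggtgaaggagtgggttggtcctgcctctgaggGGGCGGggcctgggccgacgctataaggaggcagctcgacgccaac
Cdkn1b: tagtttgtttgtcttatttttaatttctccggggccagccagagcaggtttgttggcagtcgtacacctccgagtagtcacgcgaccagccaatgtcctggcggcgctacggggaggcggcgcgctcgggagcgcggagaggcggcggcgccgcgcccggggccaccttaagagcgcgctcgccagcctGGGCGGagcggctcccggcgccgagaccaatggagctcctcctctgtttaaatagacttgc

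The p53 half-site matches in the first window of Cdkn1a lay 73 to 64 and 51 to 42 bases before the start. The pattern searched is its own reverse complement, so any match to it reads on both strands. The second window held GC boxes at 104 to 99 and 46 to 41 bases before its start, and the Cdkn1b window held 1 at 61 to 56. Both strands were searched for the GC box, the TATA box (letters TATAAA), the E-box (letters CACGTG), the E2F-type sites TTTGGCGC and TTTCCCGC, and the p53 half-site. Windows were present for 7 of the 10 genes, 11 windows in all. The names without one are Cdkn1c, Ccnd1 and Ccnd2. A GC box was found in 7 of the 11 windows, against 32.7% of 32851 windows of all genes. The p53 half-site was found in 2 of them, those of Cdkn1a and Cdkn2d, against 7.13% of all windows. In the Cdkn2d window, where it lay 102 to 93 bases before the start, it overlapped a GC box at 106 to 101. TTTCCCGC was found in 1 window, of Cdkn2a (0.895% of all windows). The TATA box, the E-box and TTTGGCGC were not found in the 11 windows and were in 12.4%, 6.02% and 0.417% of all windows. These are matches of letters and do not show binding.

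Levels are log2(intensity + 1) of the median probe set of a gene, and a probe set reads an exon or part of one. A level of 2.46, under which 95% of the population means of 1144 olfactory and vomeronasal receptor genes lay, served as the level of silent genes. Levels of different genes are not compared, because probes differ in brightness. Cd34 read 7.95 ± 0.033 (SD, n = 3) in CD34+ cells and lay under the silent level in the other populations. Gata6 read 4.39 ± 0.34 for Gata6+Itga6+ and 5.84 ± 0.046 for Gata6+Itga6- cells, but 2.73 ± 0.34 in remaining basal and 2.84 ± 0.29 in CD34+ cells (n = 3 each). Itga6 transcript was still 6.02 ± 0.31 (SD, n = 3) in the cells sorted as lacking the protein, against 6.76 to 7.67 elsewhere. Of 24 measured markers of fibroblasts, Langerhans and T cells, melanocytes, Merkel, endothelial and red cells, 3 to 5 exceeded the silent level in a population. The count of 5 was in CD34+ cells, where Col1a1 at 2.83 and Col1a2 at 2.89 exceeded it and did not elsewhere. Mlana was highest there too, at 3.01 against 2.29 to 2.53 elsewhere. Vim exceeded the level in all 4 populations. Summed over 7 fibroblast markers, the intensity of an array was 25.7 to 28.1 in CD34+ cells and 19.1 to 28.4 elsewhere. Summed over 7 Langerhans and T cell markers, the lowest and highest intensity of an array were 17.6 and 25.6 in CD34+, 24.6 and 50.9 in remaining basal, 21.1 and 23.2 in Gata6+Itga6+ and 26.3 and 36.1 in Gata6+Itga6- cells. Cd207 and Ptprc, which define Langerhans cells and leukocytes, lay under the silent level in all 4 populations. Of those 7 markers, 3 exceeded it in Gata6+Itga6- cells (H2-Ab1 at 3.01, Cd3e at 2.73 and Cd3g at 2.48), 2 in remaining basal cells (Thy1 at 3.88 and H2-Ab1 at 2.56), 1 in Gata6+Itga6+ cells (H2-Ab1 at 2.68) and 1 in CD34+ cells (Thy1 at 2.54). The part of these cells in the results was not tested.

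Of the 9 measured genes, 8 exceeded the silent level in at least 1 population, and Cdkn2b did not. In the plot of the 9 genes by array, Cdkn1a was lowest in CD34+ cells, Ccnd1 and Ccnd2 were lowest in Gata6+Itga6- cells, and Cdkn1b was lowest in remaining basal cells. The means of the other 5 genes lay nearer the silent level, between 2.08 and 3.14.

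**Figure D1:**
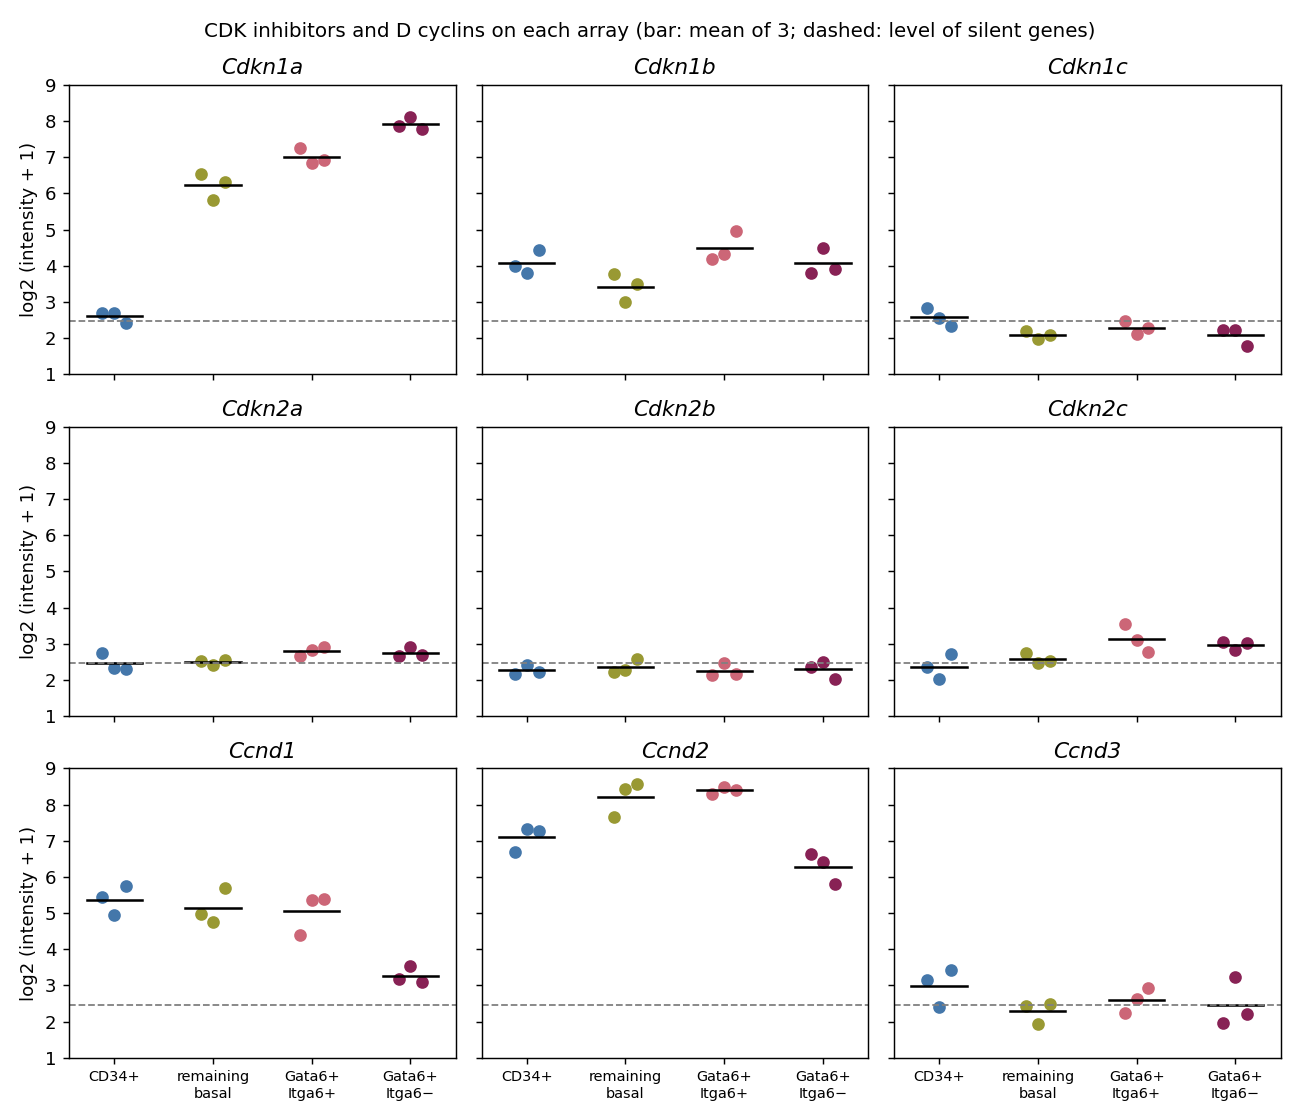
Level of each gene, as log2(intensity + 1), on the 3 arrays of each population. Points are arrays, bars are means of 3, and the dashed line is the level of silent genes, 2.46. Cdkn1a lies between 2.41 and 2.71 in CD34+ cells and between 5.81 and 8.11 elsewhere, and Ccnd1 and Ccnd2 are lowest in Gata6+Itga6- cells.

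Cdkn1a, which encodes the kinase inhibitor p21, was close to the silent level in CD34+ cells and well above it in the other populations. Its levels were 2.71, 2.71 and 2.41 in CD34+ cells, 6.55, 5.81 and 6.31 in remaining basal cells, 7.26, 6.83 and 6.93 among Gata6+Itga6+ cells, and 7.86, 8.11 and 7.78 in Gata6+Itga6- cells. The order ran from CD34+ through remaining basal and Gata6+Itga6+ to Gata6+Itga6- cells, and the arrays of neighbouring populations did not overlap. Against CD34+ cells the log2 difference was 3.62 for remaining basal, 4.40 for Gata6+Itga6+ and 5.31 for Gata6+Itga6- cells, each with an SE of 0.19. On the scale with 1 added these are 12.3, 21.1 and 39.7 times. The 3 differences share the CD34+ arrays. The steps among the other populations were smaller, at 0.78 from remaining basal to Gata6+Itga6+ cells and 0.91 from there to Gata6+Itga6- cells (SE 0.19). In a sorted bulk sample, fewer cells expressing a gene and less RNA per cell cannot be told apart.

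The exon probe sets of Cdkn1a gave differences of unequal size. In 4 of its 5 probe sets every array of the other populations lay above the CD34+ arrays, and the same 4 ran in the order given above. The brightest read 4.72 ± 0.22 (SD, n = 3) in CD34+ cells and 8.28 ± 0.033 in Gata6+Itga6- cells, a difference of 3.56, whereas the largest difference of a probe set was 5.52. The dimmest lay under the silent level in all populations. Averaging the probe sets gave differences from CD34+ cells of 2.35, 3.04 and 3.77 in remaining basal, Gata6+Itga6+ and Gata6+Itga6- cells.

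**Figure D2:**
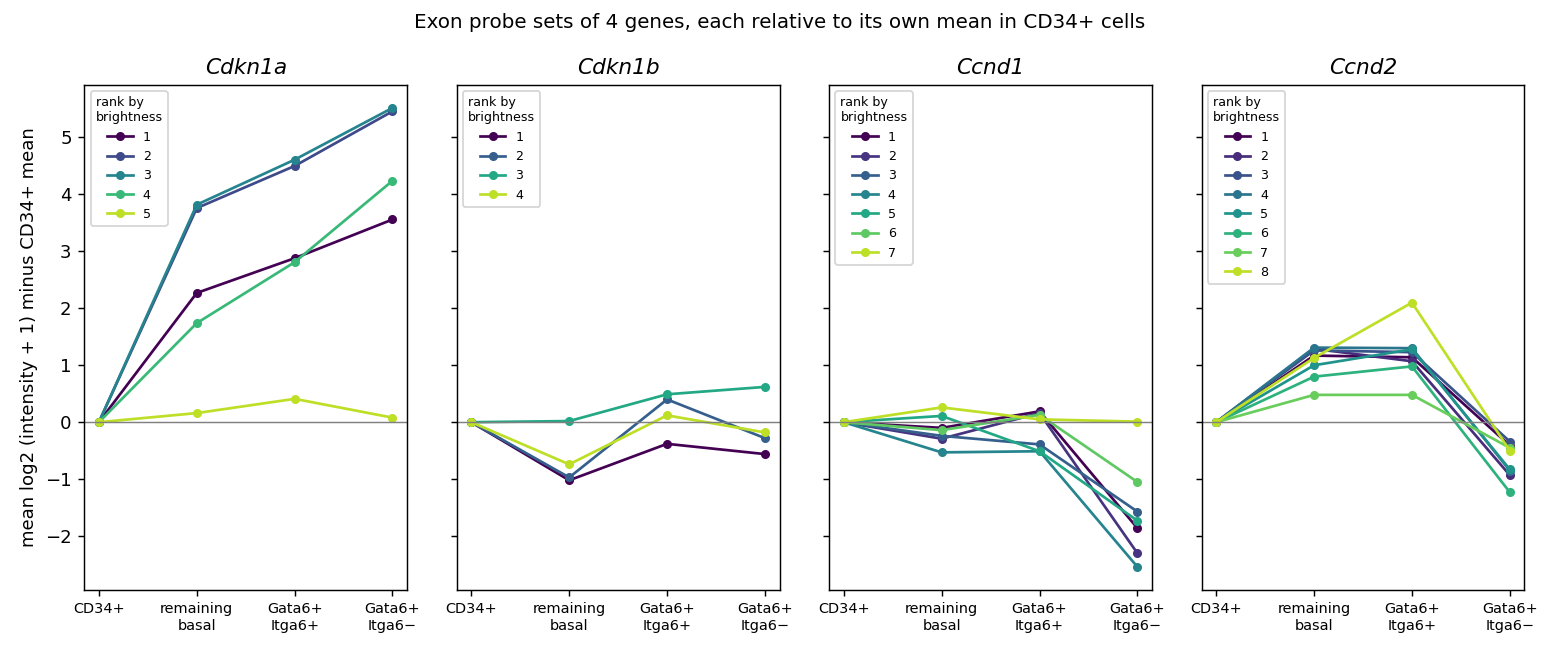
Mean log2(intensity + 1) of each exon probe set of Cdkn1a, Cdkn1b, Ccnd1 and Ccnd2 in the 4 populations (n = 3 arrays each), minus the same probe set's mean in CD34+ cells. Lines join 1 probe set and colours rank them from the brightest (1). In Cdkn1a, 4 of 5 lines climb to Gata6+Itga6- cells, Cdkn1b lines disagree in sign, and those of Ccnd2 all fall below 0 in Gata6+Itga6- cells.

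Cdkn1b encodes p27, an inhibitor associated with resting cells. It read 3.99, 3.79 and 4.44 in CD34+ cells, 3.78, 2.99 and 3.49 in remaining basal cells, 4.20, 4.34 and 4.95 among Gata6+Itga6+ cells, and 3.79, 4.50 and 3.91 in Gata6+Itga6- cells. Remaining basal cells were lowest, with no overlap but narrowly so (3.78 against 3.79 in the nearest arrays), while the other 3 populations overlapped. Gata6+Itga6+ cells exceeded remaining basal cells by 1.08, Gata6+Itga6- cells by 0.65, and remaining basal cells lay 0.66 below CD34+ cells (SE 0.28). In each of the 4 probe sets of Cdkn1b the arrays of Gata6+Itga6+ and CD34+ cells overlapped, so the sign of their difference is unsettled. It was 0.42 (SE 0.28) over the gene and -0.38 in the brightest probe set. That probe set was highest in CD34+ cells, at 7.08 ± 0.61, against 6.06 ± 0.87 in remaining basal, 6.70 ± 0.26 for Gata6+Itga6+ and 6.52 ± 0.45 in Gata6+Itga6- cells (SD, n = 3).

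Cdkn1c encodes p57, the third Cip/Kip inhibitor. It read 2.84, 2.55 and 2.35 in CD34+ cells, 2.21, 1.97 and 2.10 in remaining basal cells, 2.47, 2.11 and 2.29 among Gata6+Itga6+ cells, and 2.22, 2.24 and 1.78 in Gata6+Itga6- cells. Only the CD34+ mean, 2.58 ± 0.25 (SD, n = 3), exceeded the silent level. It lay 0.50 above Gata6+Itga6- and 0.49 above remaining basal cells (SE 0.17), with no overlap of arrays in either case. The median of 10 probe sets hid brighter exons: the brightest read 6.06 to 6.29 in the 4 populations, and its difference from CD34+ cells was 0.02 for Gata6+Itga6- and 0.13 for remaining basal cells.

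Among the INK4 inhibitors measured here, which bind Cdk4 and Cdk6, Cdkn2c had the largest differences. Cdkn2c encodes p18 and read 2.35, 2.02 and 2.72 in CD34+ cells, 2.75, 2.47 and 2.52 in remaining basal cells, 3.55, 3.10 and 2.78 among Gata6+Itga6+ cells, and 3.04, 2.82 and 3.02 in Gata6+Itga6- cells. All arrays of both reporter-positive populations lay above all others, but narrowly so (2.78 against 2.75 in the nearest arrays). The mean differences in Gata6+Itga6+ and Gata6+Itga6- cells were 0.78 and 0.60 against CD34+ and 0.56 and 0.38 against remaining basal cells (SE 0.21). Of the 4 probe sets of Cdkn2c, 0 separated either reporter-positive population from remaining basal cells without overlap. Its brightest probe set placed remaining basal cells with the reporter-positive ones, at 4.46 ± 0.63 against 5.02 ± 0.35 for Gata6+Itga6+, 4.67 ± 0.79 for Gata6+Itga6- and 3.01 ± 0.53 in CD34+ cells (SD, n = 3). There, the differences from CD34+ cells were 1.45 to 2.02.

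Cdkn2a, whose locus encodes p16 and, in another reading frame, p19Arf, was barely above the silent level. It read 2.73, 2.34 and 2.29 in CD34+ cells, 2.51, 2.40 and 2.56 in remaining basal cells, 2.66, 2.84 and 2.90 among Gata6+Itga6+ cells, and 2.66, 2.91 and 2.69 in Gata6+Itga6- cells. Both reporter-positive populations lay above remaining basal cells without overlap, by 0.31 and 0.26 (SE 0.13). In its brightest probe set the first of these differences was -0.10. Cdkn2b, which encodes p15, had population means of 2.26 to 2.36 and was not above the silent level in any, so no fold is given. Its brightest probe set did exceed that level, at 3.26 ± 0.25 in CD34+, 2.99 ± 0.14 in remaining basal, 3.09 ± 0.68 for Gata6+Itga6+ and 2.87 ± 0.59 for Gata6+Itga6- cells (SD, n = 3).

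Ccnd1, which encodes cyclin D1, was lower in Gata6+Itga6- cells than in the 3 Itga6-positive populations. It read 5.43, 4.95 and 5.74 in CD34+ cells, 4.98, 4.75 and 5.68 in remaining basal cells, 4.40, 5.36 and 5.40 among Gata6+Itga6+ cells, and 3.18, 3.54 and 3.10 in Gata6+Itga6- cells. The 3 Itga6-positive populations overlapped one another, and none of their arrays reached down to the Gata6+Itga6- arrays. Gata6+Itga6- cells lay lower by a log2 difference of 2.10 against CD34+, 1.86 against remaining basal and 1.78 against Gata6+Itga6+ cells (SE 0.33), or 4.3, 3.64 and 3.44 times. Of its 7 probe sets, 6 were without overlap lower than in CD34+ cells, and 5 were so against each of the other populations.

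Ccnd2, which encodes cyclin D2, was highest in remaining basal and Gata6+Itga6+ cells. It read 6.69, 7.32 and 7.26 in CD34+ cells, 7.66, 8.43 and 8.56 in remaining basal cells, 8.30, 8.48 and 8.40 among Gata6+Itga6+ cells, and 6.63, 6.42 and 5.79 in Gata6+Itga6- cells. Remaining basal and Gata6+Itga6+ cells overlapped at the top, CD34+ cells lay between, and Gata6+Itga6- cells had the lowest mean. The closest arrays of the lower pair, 6.69 in CD34+ and 6.63 in Gata6+Itga6- cells, nearly met. Against CD34+ cells, Gata6+Itga6+ cells were higher by 1.30 and remaining basal cells by 1.13, and Gata6+Itga6- cells lower by 0.81 (SE 0.28). Gata6+Itga6- cells lay 2.11 below Gata6+Itga6+ and 1.94 below remaining basal cells (SE 0.28), or 4.33 and 3.84 times. All 8 probe sets gave the means of Gata6+Itga6- cells as lowest and those of CD34+ cells as next, but the arrays of these 2 populations did not overlap in only 2 of the 8. In the brightest the difference between them was -0.41.

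Ccnd3, which encodes cyclin D3, read 3.15, 2.41 and 3.42 in CD34+ cells, 2.44, 1.92 and 2.48 in remaining basal cells, 2.23, 2.62 and 2.93 among Gata6+Itga6+ cells, and 1.95, 3.23 and 2.22 in Gata6+Itga6- cells. All populations overlapped. CD34+ cells had the highest mean, by 0.40 to 0.71 (SE 0.36), and the lead was clearer in the brightest of its 5 probe sets. That one read 5.17 ± 0.19 in CD34+ cells against 4.13 ± 0.31 in remaining basal, 4.13 ± 0.21 for Gata6+Itga6+ and 4.32 ± 0.18 in Gata6+Itga6- cells (SD, n = 3). In the 2 dimmest probe sets CD34+ cells had the lowest mean instead, at 1.74 and 1.46, both under the silent level.

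**Figure D3:**
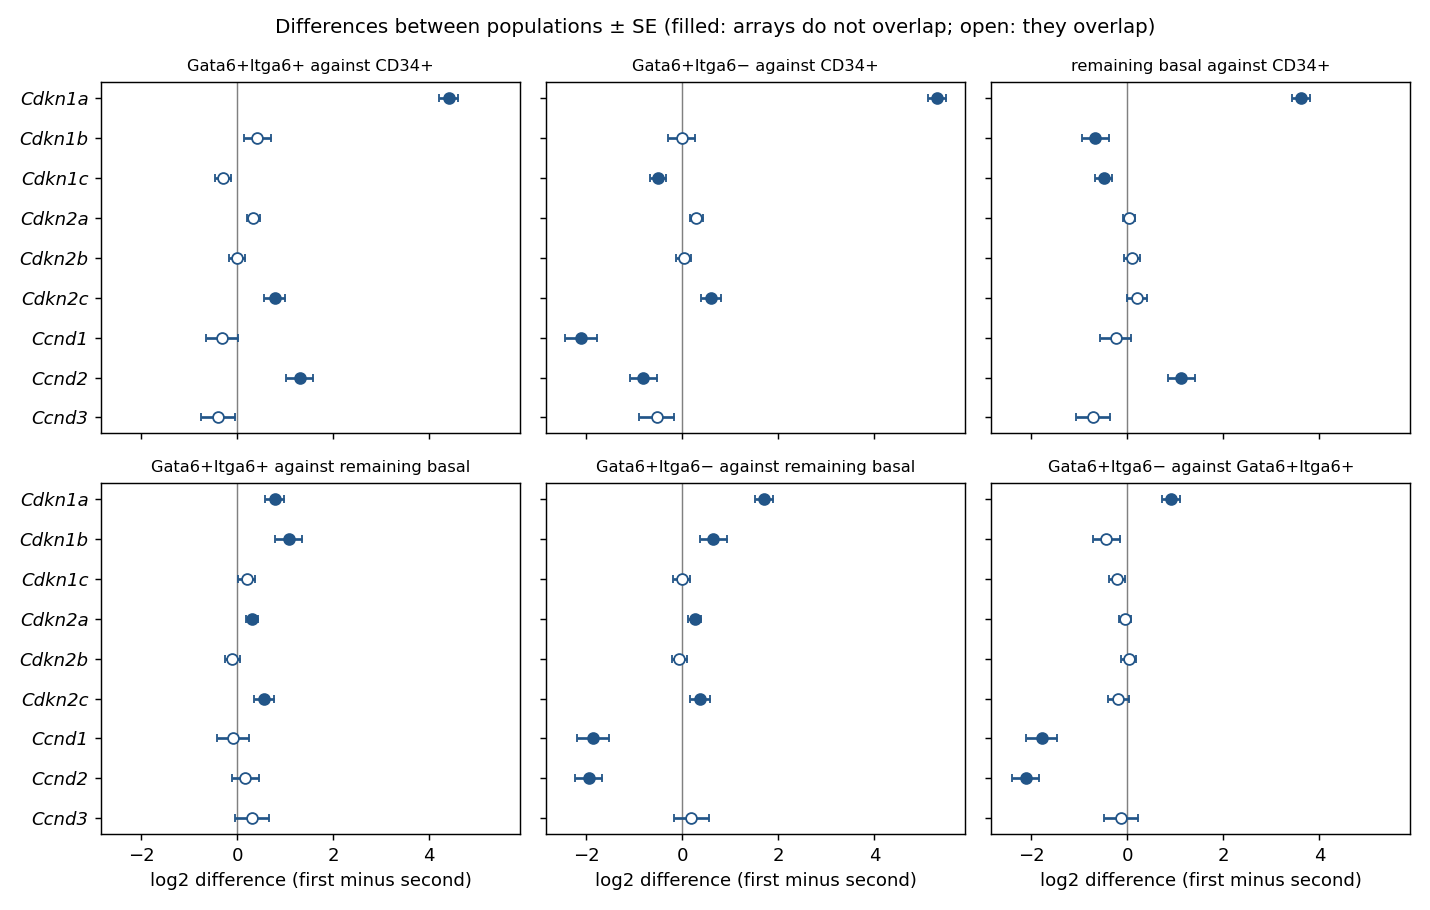
Log2 differences of the 9 genes between each pair of populations, first minus second, with the SE of the model. Filled points mark pairs whose arrays do not overlap and open points those that do. Cdkn1a stands at 3.62 to 5.31 against CD34+ cells, and Ccnd1 and Ccnd2 lie at -1.78 to -2.11 in Gata6+Itga6- against Gata6+Itga6+ and remaining basal cells.

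Set against all genes, calls (limma, p under 0.05 after Benjamini-Hochberg adjustment across the 17853 genes) are given for the 9 genes as a description only, since the genes were chosen with these contrasts known. Against CD34+ cells the call was made for 2 of 9 in Gata6+Itga6+ cells (Cdkn1a and Ccnd2, beside 4.59% of all genes), 2 in Gata6+Itga6- cells (Cdkn1a and Ccnd1, beside 7.96%) and 2 in remaining basal cells (Cdkn1a and Ccnd2, beside 5%). Cdkn1a, Ccnd1 and Ccnd2 were called for Gata6+Itga6- against remaining basal cells (beside 5.11%) and against Gata6+Itga6+ cells (beside 3.18%). In Gata6+Itga6+ against remaining basal cells 0 were called, beside 1.36%, although arrays did not overlap for 4 of them, beside 15.7% of all genes. In the order just used, arrays did not overlap for 3, 5, 4, 6 and 3 genes in the first 5 pairs, beside 19.5%, 22.7%, 18.8%, 19.8% and 19.4%.

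Some of these calls changed with the setting or with 1 array. Of 21 alternative settings, the call of Ccnd2 in remaining basal against CD34+ cells was lost in 14 and that in Gata6+Itga6+ against CD34+ cells in 6. In Gata6+Itga6- against Gata6+Itga6+ cells, the call of Cdkn1a was lost in 7 and that of Ccnd1 in 5. The losses include leaving out single arrays: any of the Gata6+Itga6+ arrays, or CD34+ replicate 1 or 3, ended the Ccnd2 call in Gata6+Itga6+ cells. With the row letter of the array name as a block, both Ccnd2 calls against CD34+ cells were lost, and that in remaining basal cells was also lost with 8 added or with only the arrays of the pair. Other calls were gained: Cdkn2c against CD34+ cells in 4 settings for Gata6+Itga6+ and 2 for Gata6+Itga6- cells, and Ccnd3 in the 3 pairs with CD34+ cells in its brightest probe set. The differences themselves stayed close, at 1.10 to 1.42 for Ccnd2 in that pair and 0.82 to 1.04 for Cdkn1a in Gata6+Itga6- against Gata6+Itga6+ cells when 1 array was left out. The calls of Cdkn1a against CD34+ cells stood in all 21 settings, but are a description, since these contrasts were known when the genes were chosen. The size of the difference did change. In Gata6+Itga6- against CD34+ cells it was 5.31 as reported and 3.56 in the brightest probe set.

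The genes whose levels ran most like Cdkn1a over the 12 arrays, among 8943 genes above the silent level, were Krt77 (Pearson's r 0.986), Dapl1 (0.984) and Dsg1a (0.980), all lowest in CD34+ cells. Krt77 is a keratin and Dsg1a a desmosomal cadherin of the upper epidermis. For Ccnd1 they were Atic (0.959), Ackr4 (0.951) and Itgb1 (0.950), the integrin beta chain that pairs with many alpha chains. For Ccnd2 they were Ifitm3 (0.979) and the replicative helicase genes Mcm4 (0.969) and Mcm6 (0.955). The 12 arrays fall into 4 populations, so these values largely order population means, and arrays of a population are not independent of its sort. Cdkn1b ran most like Gtf2i (0.908), Arrb2 (0.879) and Calr (0.877). For Cdkn1c the nearest genes were Ankrd10 (0.889), Sh2d4b (0.882) and Capg (0.857), for Cdkn2a Farp2 (0.890), Serpina1e (0.869) and Cnot6 (0.846), and for Cdkn2c Cntrl (0.892), Irf5 (0.877) and Hal (0.866). Ccnd3 ran most like Lpp (0.907), Bag4 (0.906) and Cln3 (0.895).

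The other genes of the pathway were counted in 8 lists of 154 genes, 143 of them measured. Cell cycle genes of S phase and mitosis showed the most calls. In Gata6+Itga6+ cells 12 of 28 were higher than in CD34+ cells, in remaining basal cells 6 were higher, and in Gata6+Itga6- cells 0 were called (limma; at an unadjusted p under 0.05, 1 higher and 2 lower). Against Gata6+Itga6+ cells, Gata6+Itga6- cells were lower in 11 of 28, and against remaining basal cells in 8. In Gata6+Itga6+ against remaining basal cells 1 was higher, Top2a, whose call was lost in 14 settings, among them leaving out any array other than remaining basal replicate 1 or 3. That count of 1 rose to 5 without remaining basal replicate 3. As background, of all genes 2.4% were called higher and 2.18% lower in Gata6+Itga6+ against CD34+ cells, 1.67% and 3.32% in remaining basal against CD34+, and 3.22% and 4.74% in Gata6+Itga6- against CD34+. For Gata6+Itga6+ against remaining basal the shares were 1.07% and 0.286%, for Gata6+Itga6- against remaining basal 2.96% and 2.15%, and for Gata6+Itga6- against Gata6+Itga6+ 1.17% and 2.01%. The pairs share arrays and their counts are not independent. The list's median difference was 0.82 in Gata6+Itga6+ and 0.51 in remaining basal against CD34+ cells, beside 0.02 and -0.02 over all genes, and -0.88 and -0.62 in Gata6+Itga6- against Gata6+Itga6+ and remaining basal cells, beside -0.03 and 0.00. Leaving out 1 array moved the first 2 counts to 8 to 14 and 4 to 8, and the third to 9 to 14. The count of 8 fell to 4 without Gata6+Itga6- replicate 3 or remaining basal replicate 2 and to 5 without Gata6+Itga6- replicate 1 or 2 or remaining basal replicate 3.

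Top2a is a DNA topoisomerase of dividing cells, and Mki67 is the antigen Ki-67. Top2a read 1.65, 1.80 and 1.54 in CD34+ cells, 3.03, 3.97 and 4.36 in remaining basal cells, 4.97, 5.23 and 5.34 among Gata6+Itga6+ cells, and 2.45, 2.44 and 2.33 in Gata6+Itga6- cells. It was at least 6.58-fold higher in Gata6+Itga6+ (adjusted p = 3.71e-05) and at least 2.5-fold higher in remaining basal (adjusted p = 0.00114) than in CD34+ cells. Mki67 was at least 5.11-fold and 2.45-fold higher in the same comparisons (adjusted p = 0.000344 and 0.00567). Both were below the silent level in CD34+ and in Gata6+Itga6- cells, so these folds are lower bounds. Mcm6, of the replicative helicase, was higher than in CD34+ cells by 1.89 ± 0.24 (SE) in Gata6+Itga6+ cells (adjusted p = 0.00124) and by 1.60 ± 0.24 in remaining basal cells (adjusted p = 0.00287). In its brightest probe set those calls were lost (adjusted p = 0.32 and 0.495).

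The populations at both ends of Cdkn1a had low levels of these cycling genes. CD34+ and Gata6+Itga6- cells had the lowest and the highest Cdkn1a, at 2.61 ± 0.17 and 7.92 ± 0.17 (SD, n = 3), and the median level of the S phase and mitosis genes was 1.82 ± 0.079 and 1.86 ± 0.083 in them. It was 2.42 ± 0.33 for remaining basal and 2.65 ± 0.14 for Gata6+Itga6+ cells (SD, n = 3), which had intermediate Cdkn1a. Of these 4 medians, all but that of Gata6+Itga6+ cells lay under the silent level of 2.46.

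**Figure D4:**
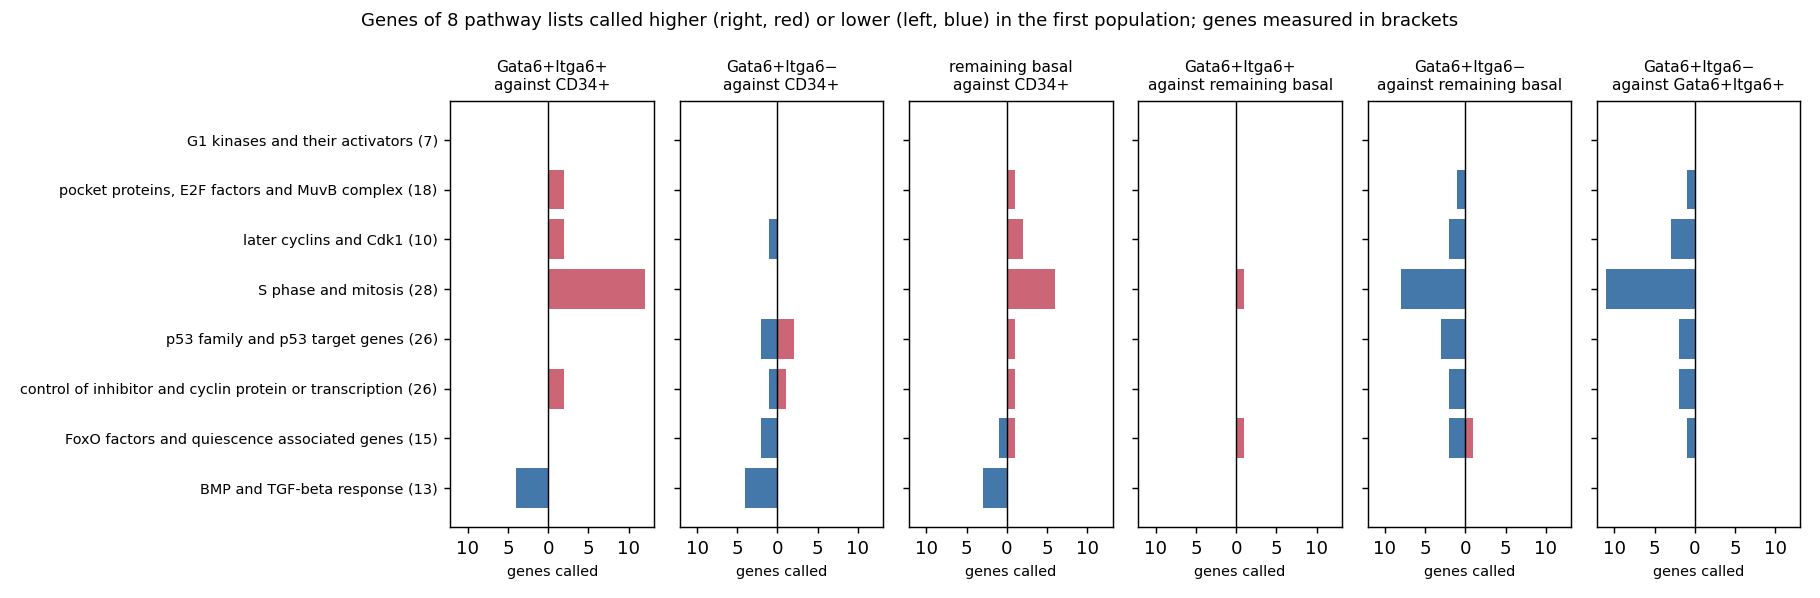
Genes of 8 pathway lists called higher (to the right) or lower (to the left) in the first population of each pair, by limma at an adjusted p under 0.05 over all genes. Bracketed numbers are genes measured. S phase and mitosis has 12 higher in Gata6+Itga6+ against CD34+ cells and 11 lower in Gata6+Itga6- against Gata6+Itga6+ cells, and BMP and TGF-beta response has 4 lower in each Gata6+ population against CD34+ cells.

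The partners of the D cyclins and the proteins that D cyclin kinases act on had few calls. Of 7 measured G1 kinases and their activators, 0 were called in any pair (limma). The median difference of these 7 genes was nevertheless -1.09 in Gata6+Itga6- against Gata6+Itga6+ cells, beside -0.03 over all genes. In the other pairs it lay between -0.30 and 0.39. At an unadjusted p under 0.05, 1 was higher in Gata6+Itga6+ against CD34+ and 1 lower in Gata6+Itga6- against CD34+ cells. Likewise 0 in remaining basal against CD34+, 3 higher in Gata6+Itga6+ against remaining basal, 2 lower in Gata6+Itga6- against remaining basal and 3 lower in Gata6+Itga6- against Gata6+Itga6+ cells had such a p. Of 18 pocket proteins, E2F factors and MuvB genes, 2 were higher in Gata6+Itga6+ and 1 in remaining basal than in CD34+ cells, and 1 was lower in Gata6+Itga6- cells against remaining basal and 1 against Gata6+Itga6+ cells. In Gata6+Itga6- against CD34+ cells 0 were called (limma; unadjusted, 1 higher and 1 lower), and in Gata6+Itga6+ against remaining basal cells 0 (unadjusted, 3 higher and 0 lower). Among the called genes Tfdp2, a partner of E2F factors, stood at 1.15 ± 0.20 (SE) in Gata6+Itga6+ against CD34+ cells (adjusted p = 0.00965). Its call was lost in the brightest probe set (adjusted p = 0.245). Of 10 later cyclins and genes around Cdk1, 2 were higher in Gata6+Itga6+ and 2 in remaining basal than in CD34+ cells. In Gata6+Itga6- cells 1 was lower than in CD34+, 2 than in remaining basal and 3 than in Gata6+Itga6+ cells, and in Gata6+Itga6+ against remaining basal cells 0 were called (limma; unadjusted, 1 higher and 1 lower). Cdk1, the mitotic kinase, stood at least 1.75-fold above CD34+ cells in Gata6+Itga6+ cells (adjusted p = 0.00964).

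The p53 family and target list, of 26 measured genes without Cdkn1a, had calls in both directions. In Gata6+Itga6+ against CD34+ cells 0 of 26 were called (limma; at an unadjusted p under 0.05, 3 higher and 1 lower). In Gata6+Itga6- against CD34+ cells, where Cdkn1a differed most, 2 were higher and 2 lower (7.69% each, beside 3.22% and 4.74% of all genes), and in remaining basal against CD34+ cells 1 was higher. Gata6+Itga6- cells were lower in 3 against remaining basal and 2 against Gata6+Itga6+ cells, and 0 were called for Gata6+Itga6+ against remaining basal cells (limma; unadjusted, 3 higher and 1 lower). The list's median difference from CD34+ cells was 0.17 for Gata6+Itga6+, 0.09 for Gata6+Itga6- and 0.03 for remaining basal cells, beside 0.02, -0.02 and -0.02 over all genes. The lower genes in Gata6+Itga6- cells were Ephx1, an epoxide hydrolase, by 2.34 ± 0.36 (SE; adjusted p = 0.00212) and Trp63, the p53 relative that maintains basal keratinocytes, by 1.45 ± 0.31 (adjusted p = 0.0148). The Trp63 call was lost in the brightest probe set (-0.52, adjusted p = 0.23) and without CD34+ replicate 3 (adjusted p = 0.0606). Of the 2 higher genes, Sesn2 stood at 0.96 ± 0.23 (SE; adjusted p = 0.031), at least 1.59-fold above CD34+ cells. The Sesn2 call was lost in 6 settings, among them the brightest probe set (0.36, adjusted p = 0.658). The count of 2 higher fell to 0 without CD34+ replicate 1 or Gata6+Itga6- replicate 2 or 3.

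Some genes of BMP and TGF-beta response were lower in the other populations than in CD34+ cells. Of 13 measured, 4 were lower in Gata6+Itga6+ cells, 4 in Gata6+Itga6- cells and 3 in remaining basal cells (all genes: 2.18%, 4.74% and 3.32% lower), and 0 were called in the other pairs (limma; at an unadjusted p under 0.05, 1 higher in Gata6+Itga6+ against remaining basal, 4 higher and 2 lower in Gata6+Itga6- against remaining basal, and 1 higher and 2 lower in Gata6+Itga6- against Gata6+Itga6+ cells). The first count fell to 2 without CD34+ replicate 2 or Gata6+Itga6+ replicate 1 or 3. Id1, Id2 and Id3, direct BMP targets whose products oppose differentiation factors, were called in all 3 comparisons. In Gata6+Itga6+ against CD34+ cells Id1 had an adjusted p of 0.0398 (limma), and its call was lost wherever the first count fell to 2. In remaining basal cells the call of Id1 was lost in the brightest probe set (adjusted p = 0.188), with only the arrays of the pair (0.121) and without remaining basal replicate 1 (0.0559), and that of Id3 with only the arrays of the pair (0.0601). The levels of Id3 were 4.13, 4.51 and 5.80 in CD34+ cells, and 2.74, 2.49 and 2.58 in remaining basal cells, and its means were under the silent level in the Gata6+ populations, so that it was at least 5.1-fold lower in each (adjusted p = 0.00178 and 0.000636). Cdkn2b, a textbook TGF-beta target, was under the silent level in CD34+ cells by its gene median, though its 2 brightest probe sets, at 3.26 and 2.63, were over it.

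Of 26 genes that control these proteins or their transcription, 2 were higher in Gata6+Itga6+ and 1 in remaining basal than in CD34+ cells, and in Gata6+Itga6- cells 1 was higher and 1 lower. Gata6+Itga6- cells were lower in 2 against remaining basal and 2 against Gata6+Itga6+ cells, and in Gata6+Itga6+ against remaining basal cells 0 were called (limma; unadjusted, 2 higher and 1 lower). Of 15 FoxO factors and quiescence genes, 0 were called in Gata6+Itga6+ against CD34+ cells (limma; unadjusted, 2 higher and 1 lower). In that list 2 were lower in Gata6+Itga6- and 1 higher and 1 lower in remaining basal against CD34+ cells. Gata6+Itga6+ cells had 1 higher than remaining basal cells, and Gata6+Itga6- cells 1 higher and 2 lower than remaining basal and 1 lower than Gata6+Itga6+ cells. Across 5 lists (all but the G1 kinases, S phase and mitosis, and BMP and TGF-beta response), 27 counts over pairs and directions were above 0, and leaving out 1 array moved 24 of them by over 1.5 times, to between 0 and 4. Klf5, a factor that promotes proliferation of epithelial cells, was higher by 2.39 ± 0.26 (SE) in Gata6+Itga6+ (adjusted p = 0.000482) and by 3.01 ± 0.26 in remaining basal (adjusted p = 7.04e-05) than in CD34+ cells. In Gata6+Itga6- cells Klf5 was higher than in CD34+ cells by 1.09 ± 0.26 (SE; adjusted p = 0.0311), a call lost in 7 settings. Bcl6, a transcriptional repressor, was lower by 2.69 ± 0.34 in Gata6+Itga6- than in CD34+ cells (SE; adjusted p = 0.00058). Nfatc1, a factor of quiescent bulge stem cells, was lower by 2.11 ± 0.27 in remaining basal than in CD34+ cells (SE; adjusted p = 0.00122). Gata6+Itga6+ and Gata6+Itga6- cells were not called against CD34+ cells for Nfatc1 (limma, adjusted p = 0.533 and 0.46). Both were higher than remaining basal cells by 1.65 ± 0.27 (SE; adjusted p = 0.0169 and 0.00539). The call in Gata6+Itga6+ cells was lost in 5 settings. Myc, a driver of proliferation, was lower in Gata6+Itga6- cells by 2.14 ± 0.35 against Gata6+Itga6+ cells (SE; adjusted p = 0.0093). Wee1, a kinase that holds back Cdk1, was lower by 2.20 ± 0.32 in the same pair (SE; adjusted p = 0.00582), but in its brightest probe set the difference was 0.27.

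How calls split between higher and lower depended on the scaling. In remaining basal against CD34+ cells 33.5% of all called genes were higher as deposited, 46.2% after quantile normalization and 51.2% with array brightness as a covariate. In Gata6+Itga6- against CD34+ cells the shares were 40.4%, 49.3% and 51.8%, in Gata6+Itga6+ against remaining basal cells 78.9%, 63.2% and 59.5%, and in Gata6+Itga6- against Gata6+Itga6+ cells 36.7%, 45.8% and 50.4%. The differences of Cdkn1a against CD34+ cells were 3.62 to 5.32 under these 3 scalings, and those of Ccnd2 in Gata6+Itga6- against Gata6+Itga6+ cells were -1.83 to -2.11. The sign of Ccnd1 in remaining basal against CD34+ cells changed from -0.24 to 0.10 with brightness as a covariate, and that of Ccnd2 in Gata6+Itga6+ against remaining basal cells from 0.17 to -0.19.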

How the data were processed

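The 12 arrays measured total RNA of 4 sorted populations with 3 replicates each. Per the submitters' processing notes, the authors made the deposited intensity values with robust multi-array average (RMA) in Affymetrix Power Tools on mm9; versions are not given in the sources used here. The intensities were read as linear, from their range (array medians 3.97 to 4.57), although RMA usually gives log2 values. Of 235932 probe sets, 221205 had 1 gene symbol and were used; 1684 had several and 13043 none. Symbols were updated through a GRCm38.p6 table, which also gave the upstream sequences. A gene's level was the median over its probe sets of log2(intensity + 1), and limma 3.58.1 in R 4.3.3 was fitted with 1 mean per population to all arrays. Log2 differences are fitted values; only folds written as "at least" are lower bounds, set against the silent level. The procedure was tested on simulated data.

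The 10 genes and the lists were chosen with earlier results of these data known. The text names all 10 genes, the sort genes, Mki67, Top2a, the 3 genes most like each gene, and from each list at most 3 called genes with the smallest adjusted p per pair; not all are given with values. The lists are G1 kinases and their activators; pocket proteins, E2F factors and MuvB complex; later cyclins and Cdk1; S phase and mitosis; p53 family and p53 target genes; control of inhibitor and cyclin protein or transcription; FoxO factors and quiescence associated genes; and BMP and TGF-beta response. Alternatives covered the added constant, the probe set summary, scaling, a filter on dim genes, the samples fitted, 2 blocks and leaving out each array.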

Additional observations from a re-analysis of the deposited data

How the results depend on the processing

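Called genes were recounted under 9 other settings and without each array. Averaging the probe sets raised the counts for all genes to 1300 (Gata6+Itga6+ against CD34+; 819 as reported), 2159 (Gata6+Itga6- against CD34+; 1421), 1513 (remaining basal against CD34+; 892), 454 (Gata6+Itga6+ against remaining basal; 242), 1403 (Gata6+Itga6- against remaining basal; 913) and 995 (Gata6+Itga6- against Gata6+Itga6+; 567). For the 143 pathway genes it raised them to 41 (18 higher and 4 lower as reported), 21 (3 and 10), 33 (12 and 4), 7 (2 and 0) and 37 (0 and 20 in the last pair). With the brightest probe set alone the first count fell to 503. With only the arrays of the pair, counts were 571 for remaining basal against CD34+, 110 for Gata6+Itga6+ against remaining basal, and, among pathway genes, 1 there and 12 in Gata6+Itga6- against remaining basal cells. With array brightness as a covariate, Gata6+Itga6+ against remaining basal gave 131 genes and 0 pathway genes (limma), and with 8 added or the row letter block 1 pathway gene. The causes were not tested.

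Without each array in turn, the 6 counts for all genes ranged from 567 to 874, 1056 to 1500, 673 to 906, 131 to 343, 644 to 926 and 285 to 626, and those of pathway genes from 15 to 25, 6 to 15, 13 to 18, 0 to 6, 10 to 20 and 12 to 26. In Gata6+Itga6- against CD34+ cells pathway calls fell to 8, 7 and 6 without Gata6+Itga6- replicate 1, Gata6+Itga6- replicate 3 and CD34+ replicate 3. In Gata6+Itga6- against remaining basal cells they fell to 12 without Gata6+Itga6- replicate 1 or remaining basal replicate 2 and to 10 without replicate 3 of either, and against Gata6+Itga6+ cells to 13 and 12 without Gata6+Itga6- replicates 1 and 3. In the brightest probe set Wee1 changed sign, to 0.32 and -0.01 in Gata6+Itga6- and remaining basal against CD34+ cells and 0.33 and 0.27 in Gata6+Itga6- against remaining basal and Gata6+Itga6+ cells, and E2f8 to 0.10 in Gata6+Itga6- against remaining basal cells. Of the differences of the 9 genes, 545 of the 594 recomputed values that the setting could change moved by less than the replicate SD. Many of these came from leaving out 1 of 3 arrays, which can hardly move a mean that far, so the count does not measure stability. The 49 larger moves all came from other settings. Among them, Cdkn1a in Gata6+Itga6+ against CD34+ cells went from 4.40 to 2.88 in the brightest probe set. A further 534 values could not change. The blocks were balanced, and in the other settings a difference of population means does not use the arrays or genes left out. The replicate block ended the Ccnd2 call in remaining basal against CD34+ cells. Cdkn2b could not be fitted under the filter on dim genes.

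Deviations of same-numbered arrays from their population means correlated at -0.11 to 0.198 (median 0.011), over 0.1 in 2 of 18 pairs. Differently numbered arrays gave -0.177 to 0.212 (median -0.007), over 0.1 in 3 of 36 pairs. Arrays with the same row letter gave -0.124 to 0.198 (median 0.037). With 3 arrays per population this cannot tell whether arrays were paired by mouse or sort. With the replicate number as a block, 801, 1388, 886, 204, 886 and 516 genes and 23, 14, 16, 2, 16 and 20 pathway genes were called. The number of arrays limits the precision, and genes near the silent level have compressed differences.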
